A study of Mus musculus with 28 samples.

Results

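Acetylation of histone H3 at lysine 27 (H3K27ac) was compared between macrophages treated with dexamethasone and macrophages treated with interleukin 4. The comparison holds 6 of the 28 samples of the series, 3 dexamethasone (Dex) and 3 interleukin 4 (IL4) libraries, chosen by treatment and assay, with libraries that carry the same replicate number taken as a pair. The cells were primary macrophages from the bone marrow of C57BL/6 mice (males, 8 to 10 weeks old), differentiated for 5 days with L-cell conditioned medium, which supplies the growth factor CSF1. All groups share this strain, sex and culture. The Dex cells received 100 nM dexamethasone for 24 h and the IL4 cells 10 ng/ml interleukin 4 for 24 h. Where they help to place a value, H3K27ac libraries of cells given 500 nM corticosterone (Cort, n = 3) or vehicle (n = 3, whose titles state no time) were also used. So were glucocorticoid receptor (GR) libraries of Dex (n = 4) and IL4 (n = 3) cells. Chromatin immunoprecipitation followed by sequencing (ChIP-seq) with an H3K27ac antibody gave read counts over 63313 peaks, and 59881 passed the filter on low counts. The labels do not say whether libraries came from separate mice, so p-values cover the spread between libraries only. A ChIP signal is a mean over many cells, so a mark on fewer cells and less of the mark per cell cannot be told apart.

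Dexamethasone is a synthetic glucocorticoid. It binds GR, a nuclear receptor that then enters the nucleus and attaches to DNA at glucocorticoid response elements or through other bound factors, recruiting coactivators with acetyltransferase activity at some sites and corepressors at others. Interleukin 4 acts through the IL4 receptor and JAK kinases on the transcription factor STAT6, which drives the alternative activation programme of macrophages, with arginase, chitinase-like proteins, lectins and antigen presentation genes among its textbook targets. H3K27ac marks active enhancers and promoters, and in macrophages it is gained and lost at enhancers when the cells meet a new signal.

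Some sequences of the regions at the centre of the comparison are shown first. They are RefSeq promoters of mouse build GRCm38.p6 (mm10), from 250 bases before to 50 bases after the gene start, on the gene's strand and written 5′ to 3′. Ddit4 (chr10:59951721-59952020, minus strand) and Tlr5 (chr1:182954538-182954837, plus strand) start in peaks that were much higher with Dex. Sgk1 (chr10:21993640-21993939, plus strand) starts in a peak that was slightly higher and was picked after the search because its promoter holds a complete glucocorticoid response element. Pdcd1lg2 (chr19:29410669-29410968, plus strand), Tmem26 (chr10:68723496-68723795, plus strand) and Itgax (chr7:128129300-128129599, plus strand) start in peaks that were much lower with Dex. Capitals mark matches on either strand to the full element (AGAACA and TGTTCT, 3 bases of any kind apart), to its first part AGAACA alone, or to the STAT6 element (TTC and GAA, 4 bases of any kind apart), which reads the same on both strands.
Ddit4: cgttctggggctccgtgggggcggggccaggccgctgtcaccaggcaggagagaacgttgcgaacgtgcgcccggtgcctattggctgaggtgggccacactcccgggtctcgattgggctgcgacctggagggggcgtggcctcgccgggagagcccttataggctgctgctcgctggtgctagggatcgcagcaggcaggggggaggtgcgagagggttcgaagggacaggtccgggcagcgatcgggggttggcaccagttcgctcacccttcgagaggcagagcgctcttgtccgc
Tlr5: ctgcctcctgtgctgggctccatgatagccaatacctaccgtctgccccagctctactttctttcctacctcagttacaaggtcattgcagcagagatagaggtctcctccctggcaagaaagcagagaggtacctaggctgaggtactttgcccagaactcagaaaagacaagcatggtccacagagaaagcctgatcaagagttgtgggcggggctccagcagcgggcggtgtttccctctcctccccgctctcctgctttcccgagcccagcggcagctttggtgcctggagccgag
Sgk1: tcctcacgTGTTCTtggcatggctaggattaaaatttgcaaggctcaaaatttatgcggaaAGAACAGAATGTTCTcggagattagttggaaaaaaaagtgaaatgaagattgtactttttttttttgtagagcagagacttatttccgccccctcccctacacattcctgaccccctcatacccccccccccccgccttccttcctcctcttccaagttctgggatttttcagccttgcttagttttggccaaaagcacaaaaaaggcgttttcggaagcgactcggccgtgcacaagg
Pdcd1lg2: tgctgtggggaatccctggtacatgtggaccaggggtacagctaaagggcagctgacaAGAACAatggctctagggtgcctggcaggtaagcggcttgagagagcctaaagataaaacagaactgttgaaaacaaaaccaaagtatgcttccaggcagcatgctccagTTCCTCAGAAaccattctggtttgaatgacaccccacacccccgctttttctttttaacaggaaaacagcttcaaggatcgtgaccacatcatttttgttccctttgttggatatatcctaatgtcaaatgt
Tmem26: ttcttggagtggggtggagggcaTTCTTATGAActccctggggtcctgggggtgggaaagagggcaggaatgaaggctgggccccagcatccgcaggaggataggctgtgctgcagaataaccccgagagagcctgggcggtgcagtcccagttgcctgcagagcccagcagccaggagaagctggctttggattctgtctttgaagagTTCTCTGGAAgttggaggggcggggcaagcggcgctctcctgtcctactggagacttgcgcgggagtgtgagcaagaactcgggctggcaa
Itgax: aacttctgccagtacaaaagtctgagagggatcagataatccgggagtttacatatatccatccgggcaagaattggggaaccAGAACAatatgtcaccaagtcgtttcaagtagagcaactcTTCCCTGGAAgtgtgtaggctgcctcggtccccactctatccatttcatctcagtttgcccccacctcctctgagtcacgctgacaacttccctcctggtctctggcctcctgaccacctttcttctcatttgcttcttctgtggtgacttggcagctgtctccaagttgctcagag
The full element was found in 3 of the 32851 promoters of the table, AGAACA, which the full element contains, in 19.0% of them and the STAT6 element in 6.95%. Of the 11783 promoters whose start lay in any tested peak, 1 held the full element, 12.5% AGAACA and 5.64% the STAT6 element. Of 2118 promoters whose start lay in a peak higher with Dex, 1 (Sgk1) held the full element, 15.0% AGAACA and 4.72% the STAT6 element. Of 1700 promoters whose start lay in a lower peak, 0 held the full element, 12.6% AGAACA and 6.65% the STAT6 element. In Sgk1, which encodes a serum- and glucocorticoid-regulated kinase, the element spans positions -189 to -175 from the gene start, and the capitals before it are a separate AGAACA match on the other strand. Its peak (chr10:21990960-21997223) had 175, 186 and 170.0 CPM (counts in peaks scaled to a common library size) in Dex libraries 1 to 3, against 138, 147 and 162 CPM in IL4 libraries, and a log2 fold change of 0.25 ± 0.08 (SE; adjusted p = 0.0205, edgeR). No GR peak lay in it. The Ddit4 and Tlr5 promoters held none of the 3 letter patterns. The 3 printed promoters of lower peaks each hold a STAT6 element, but only 6.65% of all promoters that start in a lower peak do. The promoters of Matk, Klrb1a, Socs1, H2-Aa, Igf1 and Irf4 also start in lower peaks, are not printed and held none of the 3 patterns. Those of Mmp12, Ctsk and B2m, in lower peaks too, held no STAT6 element. Among promoters read at named lower peaks, the 3 printed are thus the only ones with a STAT6 element. The Hprt promoter, in a peak with a log2 fold change of 0.27, also held a STAT6 element. A match describes letters and is no bound site, and no match says only that these letters are not in this window.

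Counts in peaks were 7873794, 13065208 and 13872923 in Dex libraries 1 to 3, against 7910848, 12801106 and 15011490 in IL4 libraries 1 to 3, so the pairs were matched in depth and the first pair was the shallowest. The share of counts in the 25% of peaks with the lowest counts was 1.5%, 1.26% and 1.21% in Dex libraries and 1.69%, 1.36% and 1.45% in IL4 libraries, highest in replicate 1 of each. Values per library are TMM-normalised CPM, that is, counts in peaks scaled to a common library size. Differences are log2 fold changes of Dex over IL4 with their standard errors, from edgeR's quasi-likelihood test with the replicate number as a block. Calls are made at a p below 0.05 after Benjamini-Hochberg adjustment across the 59881 peaks. Peaks carry the name of the nearest protein-coding gene within 50 kb, which need not be the gene they act on.

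Dex and IL4 left the acetylation landscape different at 25561 of the 59881 tested peaks (42.7%). With Dex, 12669 peaks (21.2%) were higher and 12892 (21.5%) were lower. Large differences were more numerous among the lower peaks. A log2 fold change of at least 1 was reached by 5521 higher peaks (9.22% of tested peaks) and 7555 lower peaks (12.6%), of at least 2 by 725 higher and 2219 lower peaks, and of at least 4 by 20 higher and 47 lower peaks. All 3 pairs had the called direction at 12141 higher peaks (95.8%) and 12656 lower peaks (98.2%). The 3 Dex libraries lay wholly beyond the 3 IL4 libraries at 9540 of the higher peaks (75.3%) and 10887 of the lower peaks (84.4%). Over all tested peaks, called or not, Dex libraries lay wholly above at 19.7% and wholly below at 21.1%. The median over all tested peaks was 0.05. When libraries were scaled on low-count peaks alone, that median was 0.24 and 18269 peaks were higher and 9913 lower, so that 64.8% of called peaks were higher, against 49.6% with the main scaling. Without the replicate block 7238 peaks were higher and 8736 lower.

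**Figure D1:**
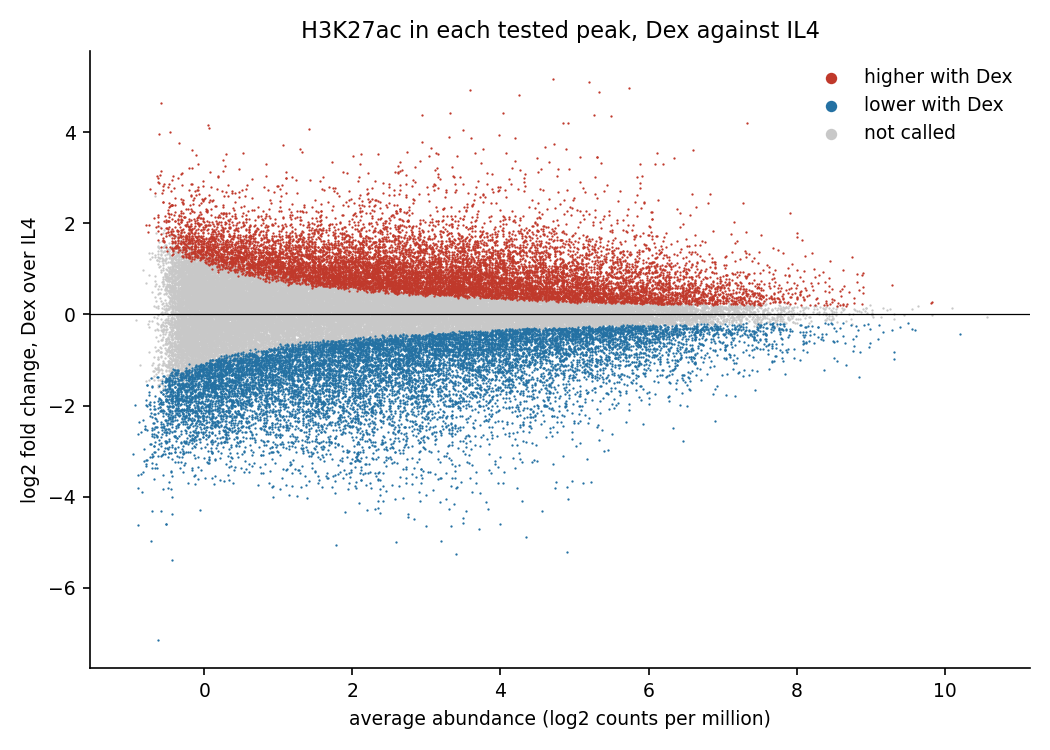
Each point is 1 of the 59881 tested H3K27ac peaks, with its average abundance on the x axis (log2 CPM) and the log2 fold change of Dex over IL4 on the y axis. The 12669 peaks called higher with Dex and the 12892 called lower are coloured, and more of the lower ones lie beyond 2 log2 units.

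The vehicle libraries place these differences, with both sides of the contrast set against the same vehicle cells. Among the peaks higher with Dex the median difference of Dex from IL4 was 0.91, that of Dex from vehicle 0.22 and that of IL4 from vehicle -0.65. Among the lower peaks those medians were -1.15, -0.14 and 1.01. Both sets were defined by the contrast of Dex with IL4, and all 3 differences share libraries, so these medians describe the sets and test nothing. In the fit of all 12 libraries, 5937 peaks (9.91%) were higher and 6194 (10.3%) lower with Dex than with vehicle. With IL4, 13134 (21.9%) were higher and 12923 (21.6%) lower than with vehicle.

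Named peaks were taken by fold change among called peaks of at least median abundance, 1 for each gene, with all 3 Dex libraries beyond all 3 IL4 libraries. The 12 named for the highest values included peaks near Cd163, Zbtb16, Ddit4 and Deptor. The first of them by log2 fold change lay 4.78 kb from Armc12 (chr17:28521675-28526085), on the stretch of chromosome 17 that also holds Fkbp5, the gene of a GR co-chaperone. It had 116, 103 and 110.0 CPM in Dex libraries, against 6.04, 3.16 and 2.17 CPM in IL4 libraries, a log2 fold change of 4.96 ± 0.18 (adjusted p = 8.18e-15, edgeR). Vehicle libraries averaged 4.29 ± 1.78 CPM there (SD, n = 3), and the difference of IL4 from vehicle, -0.20, did not pass the test (adjusted p = 0.534, edgeR), while Cort libraries had 91.9 to 104 CPM. A peak 23.6 kb from Cd163 (chr6:124277633-124281022), the scavenger receptor for haemoglobin bound to haptoglobin, had 80.7, 92.4 and 81.7 CPM with Dex, against 5.30, 3.89 and 3.59 CPM with IL4. Its log2 fold change was 4.35 ± 0.14 (adjusted p = 2.01e-15, edgeR). Here both treatments differed from vehicle, Dex by 3.33 and IL4 by -1.02 (adjusted p = 2.67e-14 and 1.53e-05, edgeR). A peak in Zbtb16 (chr9:48722671-48725109), which encodes the zinc finger repressor PLZF, had 40.3, 24.8 and 37.6 CPM with Dex, against 2.96, 1.05 and 1.15 CPM with IL4.

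Neighbouring peaks on chromosome 10 were higher together. The peak nearest Anapc16 (chr10:59972781-59976507), a subunit of the anaphase-promoting complex, had 83.7, 71.6 and 96.4 CPM in Dex libraries and 6.65, 2.11 and 1.15 CPM in IL4 libraries. The adjacent peak nearest Ddit4 (chr10:59966427-59969109), whose product REDD1 inhibits mTORC1, had 29.1, 16.8 and 33.6 CPM with Dex and 2.59, 1.38 and 1.62 CPM with IL4. Their log2 fold changes were 4.88 ± 0.29 and 3.86 ± 0.24. A peak in Deptor (chr15:55131491-55133466), the gene of another inhibitor of mTOR, had 27.5, 15.8 and 25.4 CPM with Dex and 1.48, 1.13 and 1.83 CPM with IL4 (log2 fold change 3.90 ± 0.19). The other 6 of the 12 named peaks lay in or near Mctp2, Ube2s, Ppp1r21, Klhl6, Drap1 and Ubxn2b. Over all 12 the log2 fold changes ran from 3.86 to 4.96 with standard errors of 0.14 to 0.32 and adjusted p of at most 5.1e-11. None of the 12 covered a gene start, 4 lay in a gene and 8 between genes. Each of the 12 overlapped at least 1 GR peak.

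At the other end, the 12 peaks named for the lowest values lay near ribonuclease genes, Mad1l1, Il31ra, Gpr65, Thrb and others, and IL4 was above vehicle at all 12. The peak 14.7 kb from Ear10 (chr14:43938325-43940695), an eosinophil-associated ribonuclease, had 1.96, 1.13 and 0.219 CPM in Dex libraries, against 37.8, 33.0 and 41.6 CPM in IL4 libraries, a log2 fold change of -5.26 ± 0.32 (adjusted p = 1.39e-11, edgeR). A peak 1.96 kb from Ang5 (chr14:43965041-43968724), of the angiogenin family, had 4.16, 3.05 and 2.05 CPM with Dex and 109, 107 and 111 CPM with IL4. Ear10, Ang5 and Ang6 belong to a cluster of near-identical ribonuclease genes, so how reads were shared among these copies is uncertain. Peaks in Mad1l1 and Il31ra lay outside that cluster, on other chromosomes. The Mad1l1 peak (chr5:140147983-140152228), in a spindle checkpoint gene, had 3.18, 3.14 and 1.17 CPM with Dex, against 77.9, 61.3 and 76.3 CPM with IL4 (log2 fold change -4.89 ± 0.22). The Il31ra peak (chr13:112550914-112553062), in a subunit gene of the interleukin 31 receptor, had 1.71, 1.69 and 0.804 CPM with Dex, against 42.1, 32.3 and 30.2 CPM with IL4 (log2 fold change -4.65 ± 0.21).

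A peak 33.3 kb from Gpr65 (chr12:98310006-98313689), a proton-sensing receptor of leukocytes, had 5.38, 4.34 and 3.00 CPM with Dex, against 87.0, 72.9 and 84.3 CPM with IL4 (log2 fold change -4.31 ± 0.17). A peak in Thrb (chr14:17743061-17744595), a thyroid hormone receptor gene, had 1.10, 1.13 and 0.365 CPM with Dex, against 16.3, 18.4 and 16 CPM with IL4 (log2 fold change -4.35 ± 0.30). The remaining named peaks lay in or near Msx3, Kcnd3, Mark1, Klhl25 and Tex9. Fitted differences of Dex from vehicle were -0.55 to 0.78 at the 12, while IL4 exceeded vehicle by 3.91 to 5.42 log2 units. None of the 12 overlapped a GR peak.

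**Figure D2:**
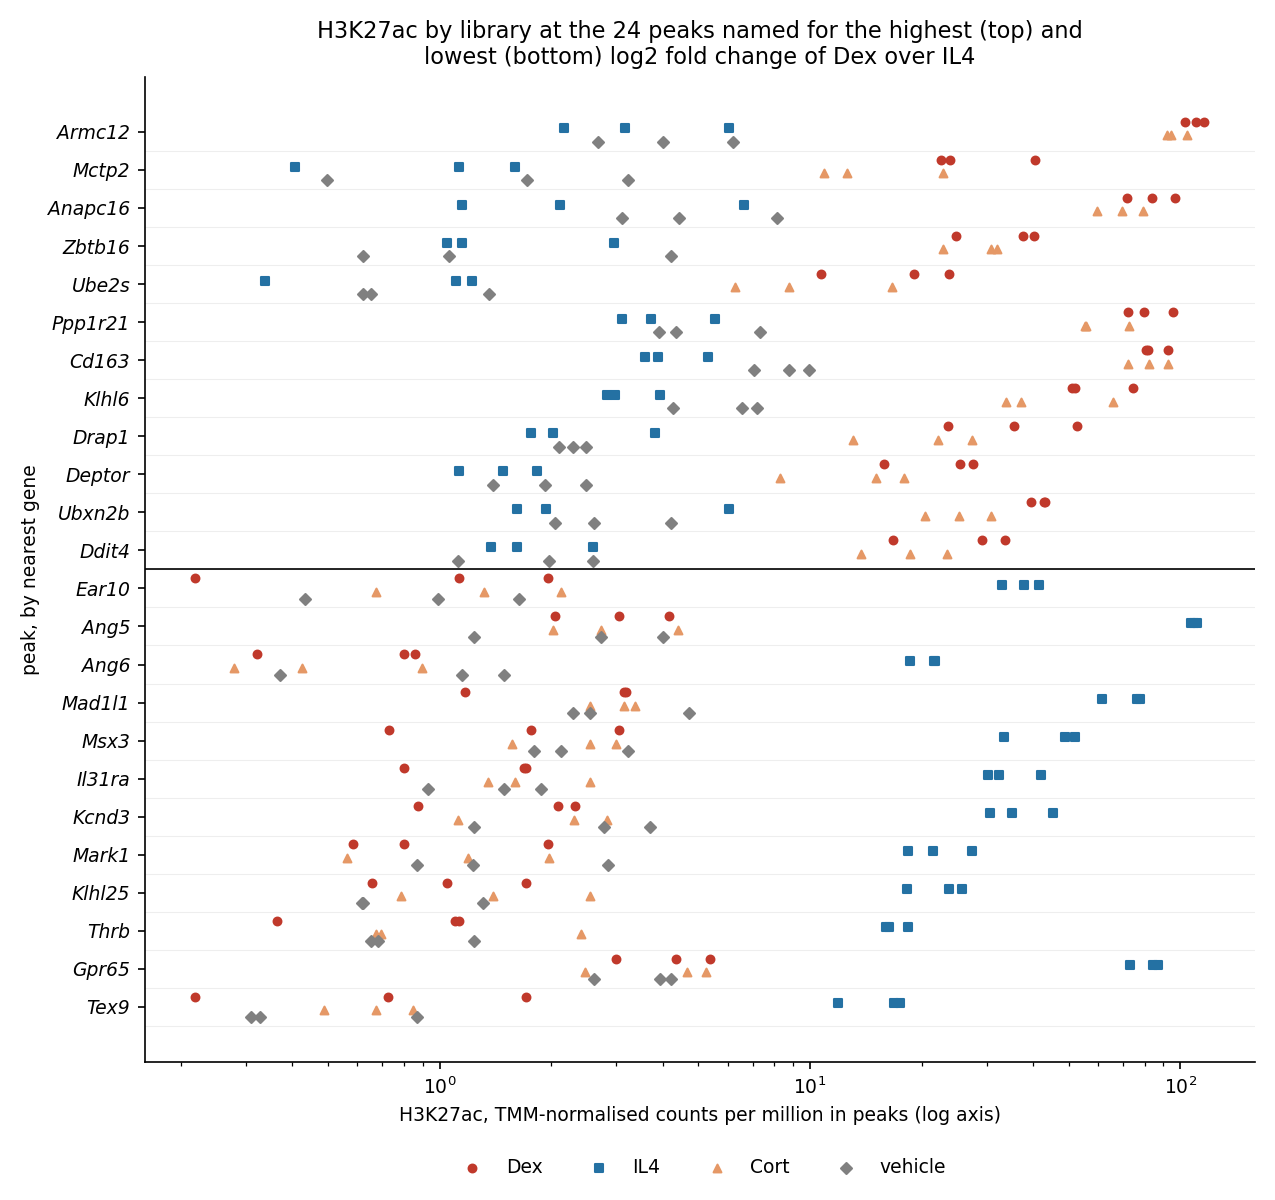
H3K27ac in each library (TMM-normalised CPM, log axis) at the 12 peaks named for the highest (top) and the 12 for the lowest (bottom) log2 fold change of Dex over IL4, by nearest gene. Points are single libraries, 3 per group, with Dex above IL4, Cort and vehicle in each row. The 3 Dex libraries lie wholly beyond the 3 IL4 libraries at each peak, which the rule for choosing them requires.

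Peaks were also grouped by where they lie. Of 9172 tested peaks that covered a gene start, 17.4% were higher and 14.2% lower with Dex, so 31.6% were called. Peaks in genes away from the start were higher in 21.3% and lower in 21.5%, those between genes in 23.4% and 24.8%, and those more than 50 kb from any gene in 22.7% and 27.6%. Single gene starts had large differences. The Ddit4 peak over the gene start (chr10:59946748-59953412), whose promoter is printed above, had 173, 93.3 and 186 CPM with Dex, against 16.5, 12.1 and 15.9 CPM with IL4, a log2 fold change of 3.31 ± 0.16 (adjusted p = 3.62e-13, edgeR). No GR peak lay in it, while the distal Ddit4 peak held one. At the start of Tlr5 (chr1:182953308-182955011), the gene of a receptor for bacterial flagellin, Dex libraries had 23.4, 16.9 and 13.2 CPM and IL4 libraries 3.08, 1.78 and 1.69 CPM (log2 fold change 3.04 ± 0.18). Both treatments moved it, since Dex exceeded vehicle by 1.37 and IL4 fell below vehicle by -1.67 on the log2 scale (adjusted p = 6.47e-07 and 2.41e-07, edgeR). The start of Rtkn2 (chr10:68057207-68059269) had 23.1, 20.6 and 18.5 CPM with Dex and 3.08, 1.62 and 1.08 CPM with IL4. Slc28a2b, Zbtb16 and Fkbp5 completed the 6 named higher peaks within 1 kb of a start.

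The gene starts with the lowest fold changes included an immune ligand and a kinase. Pdcd1lg2 (chr19:29410329-29411585), which encodes the checkpoint ligand PD-L2, had 1.35, 1.21 and 0.439 CPM with Dex, against 14.2, 18.6 and 15.4 CPM with IL4 (log2 fold change -4.10 ± 0.31, adjusted p = 3.18e-10, edgeR). Its printed promoter holds AGAACA and a STAT6 element. Tmem26 (chr10:68722814-68727417) had 4.40, 3.94 and 3.14 CPM with Dex, against 70.9, 54.5 and 68.4 CPM with IL4 (log2 fold change -4.09 ± 0.21). That promoter holds STAT6 elements only. Matk (chr10:81255576-81258598), a Csk-like kinase, had 5.51, 3.78 and 4.02 CPM with Dex, against 62.1, 57.4 and 63.8 CPM with IL4. The start of Klrb1a, a C-type lectin-like receptor gene, was also lower, by -3.73 ± 0.25.

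Genes known to be induced by glucocorticoids mostly carried higher peaks with Dex. Their list had 223 tested peaks near 27 genes, of which 113 (50.7%) were higher and 28 (12.6%) lower. Over all tested peaks 21.2% were higher and 21.5% lower. The list's median log2 fold change was 0.63, against 0.05 over all tested peaks. Of the 27 genes, 15 had only higher called peaks, 3 only lower, 7 both and 2 none. This list and the lists below were chosen with earlier results of these data known, so their counts describe and test nothing. The 13 peaks of Cd163 were all higher, by 1.62 to 4.35. Zbtb16 had 15 of 16 higher, and so did Fkbp5. The Fkbp5 peak with the smallest p, in the gene (chr17:28417181-28423716), had 149, 126 and 175 CPM with Dex and 17.9, 10.8 and 13.6 CPM with IL4 (log2 fold change 3.44 ± 0.14, adjusted p = 2.06e-14, edgeR). Tsc22d3, which encodes the glucocorticoid-induced leucine zipper GILZ, had 10 of 16 higher. A long peak 23.9 kb from it (chrX:140503569-140515614) had 247, 205 and 262 CPM with Dex and 56.9, 51.9 and 65.5 CPM with IL4 (log2 fold change 2.03 ± 0.08). Mertk, a receptor for the uptake of apoptotic cells, had 13 of 20 higher and 1 lower.

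Hif3a, a hypoxia-inducible factor gene, showed a different arrangement of the groups. Its peak within 1 kb of the gene start (chr7:17055680-17062144) had 133, 177 and 136 CPM with Dex, against 20.2, 31.0 and 21.2 CPM with IL4, and 83.0 ± 22.1 CPM with vehicle (SD, n = 3). Dex was above vehicle by 0.86 and IL4 below it by -1.78 (adjusted p = 1.18e-07 and 1.18e-12, edgeR), so more of the log2 fold change of 2.64 ± 0.09 lay on the IL4 side. Irak3, an inhibitor of Toll-like receptor signalling, had 11 of 18 peaks higher. The exceptions were Anxa1, which encodes the anti-inflammatory protein annexin A1, with 8 of 14 peaks lower and none higher, and Klf4, a zinc finger factor that IL4 also induces in macrophages, with 5 of 8 lower and none higher. Errfi1 also had only lower called peaks, 2 of 11, a share no higher than the 21.5% lower over all tested peaks.

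The list of IL4 and STAT6 target genes, also chosen with earlier results of these data known, leaned the other way. Of its 188 tested peaks near 31 genes, 119 (63.3%) were lower with Dex and 16 (8.51%) higher, with a median of -0.96. Over all tested peaks 21.5% were lower and 21.2% higher. Only lower called peaks were found at 20 genes, only higher at 3, both at 6 and none at 2. All 4 peaks of Arg1, the arginase gene, were lower. The one over its start (chr10:24925977-24932480) had 60.4, 43.7 and 40.9 CPM with Dex, against 188, 158 and 150.0 CPM with IL4 (log2 fold change -1.79 ± 0.09, adjusted p = 5.67e-13, edgeR). Vehicle libraries averaged 49.0 ± 9.99 CPM, within the range of the Dex libraries. The start of Itgax, the gene of CD11c (chr7:128127307-128134471), had 14.8, 15.1 and 16.2 CPM with Dex, against 128, 107 and 130.0 CPM with IL4 (log2 fold change -2.97 ± 0.11). Its printed promoter holds AGAACA and a STAT6 element. The start of Slc7a2, a cationic amino acid transporter, had 4.16, 3.46 and 2.85 CPM with Dex, against 32.8, 30.0 and 26.3 CPM with IL4 (log2 fold change -3.10 ± 0.17). At that peak Dex was also above vehicle, by 1.09 (adjusted p = 0.00153, edgeR).

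Whole groups of peaks were lower around other members of this list. Batf3, a bZIP factor of dendritic cells and macrophages, had 11 of 11 lower, from -3.47 to -1.02. Clec7a, the receptor dectin-1, had 7 of 7, Cish, a feedback inhibitor of cytokine receptors, 6 of 6, and Flt1, a receptor of vascular endothelial growth factors, 12 of 13. Mrc1, the mannose receptor gene, was mixed, with 13 of 28 lower and 1 higher. Going the other way, Kdm6b, an H3K27 demethylase gene, had 3 of 4 higher and Ch25h, cholesterol 25-hydroxylase, 4 of 7. Chil3, a chitinase-like protein, had 1 of 4 higher, near the share of 21.2% over all tested peaks. None of these had a lower called peak.

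The genes of the IL4 receptor pathway itself were mixed. The receptor chain Il13ra1 had 6 of 6 peaks higher, from 0.93 to 1.61, and Il4ra had 6 of 12 higher and 3 lower. Of the kinases, Jak1 had 9 of 25 peaks higher and 4 lower, and Jak2 had 3 of 7 lower. Stat6 had 2 of 5 higher. The feedback inhibitors Socs1 and Socs3 went opposite ways. The Socs1 peak over its start (chr16:10781366-10787887) had 31.4, 85.6 and 28.1 CPM with Dex, against 151, 182 and 146 CPM with IL4 (log2 fold change -1.90 ± 0.16, adjusted p = 1.46e-09, edgeR). A peak near Socs3 (chr11:117974026-117980817) had 47.7, 99.8 and 38.5 CPM with Dex, against 15.4, 21.9 and 13.5 CPM with IL4 (log2 fold change 1.80 ± 0.13). In both genes replicate 2 was the highest library of its group under either treatment. Over the list, 34 of 108 peaks (31.5%) were higher and 23 (21.3%) lower, beside 21.2% and 21.5% over all tested peaks.

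GR and the proteins that handle it formed a list with counts nearer to those over all peaks. Of 134 peaks, 31 (23.1%) were higher and 24 (17.9%) lower, beside 21.2% and 21.5% over all tested peaks. Of the higher ones, 15 belong to Fkbp5. Without the replicate block the list had 20 higher and 11 lower, and without replicate 1 or replicate 3 of all groups 15 lower. Nr3c1, the GR gene, had 2 of 13 peaks higher and 4 lower. Ncoa1, a coactivator of nuclear receptors, had 5 of 14 higher and Ncoa3, of the same family, had 8 of 24 lower and 1 higher.

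Among 299 peaks of transcription regulators, 76 (25.4%) were higher and 97 (32.4%) lower, beside 21.2% and 21.5% over all tested peaks. Of the KLF zinc finger factors, Klf13 had 12 of 15 peaks higher and Klf3 9 of 12, against Klf4 above. The Klf13 peak with the smallest p (chr7:63894363-63900930) had 107, 107 and 120.0 CPM with Dex, against 17.1, 11.8 and 12.6 CPM with IL4 (log2 fold change 3.04 ± 0.13, adjusted p = 4.88e-14, edgeR). Bhlhe40, a basic helix-loop-helix factor, had 12 of 12 peaks lower. The one with the smallest p, 41.5 kb away (chr6:108708425-108710502) had 1.84, 1.85 and 1.83 CPM with Dex, against 18.0, 18.2 and 21.5 CPM with IL4 (log2 fold change -3.40 ± 0.21). Pparg, the lipid-sensing nuclear receptor induced in alternative activation, had 16 of 25 peaks lower and none higher. Fosl2 had 7 of 10 lower and 2 higher, Atf3 6 of 11 lower, and Egr1 3 of 3 higher, while Egr2, an early target of IL4, had 3 of 5 lower.

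Inflammatory cytokine and chemokine genes had more higher than lower peaks with Dex, relative to IL4. Of 114 peaks, 43 (37.7%) were higher and 18 (15.8%) lower, beside 21.2% and 21.5% over all tested peaks. The list's median was 0.30, and its median differences from vehicle were 0.04 for Dex and -0.26 for IL4. Without Dex replicate 2, or without IL4 replicate 2, the higher count was 24, and without replicate 2 of all groups it was 22. Without the block 16 were higher and 7 lower. The lower count was 11 without Dex replicate 3 and without replicate 1 or 3 of all groups. Near Nlrp3, an inflammasome sensor (chr11:59532979-59536168), Dex libraries had 60.9, 100.0 and 63.5 CPM and IL4 libraries 17.4, 33.5 and 18.1 CPM (log2 fold change 1.72 ± 0.11, adjusted p = 1.42e-11, edgeR), so replicate 2 was again the highest of both groups. There Dex exceeded vehicle by 0.47 and IL4 fell below it by -1.25. Cd40, a costimulatory receptor gene, was lower at 3 of 3 peaks and Ccl2, a monocyte chemokine, at 6 of 9. The interferon-response list had 15 of 68 peaks (22.1%) higher and 6 (8.82%) lower, beside 21.2% and 21.5% over all tested peaks. Without the block its counts were 5 and 2. At the start of Gbp5, an interferon-induced GTPase, Dex libraries had 12.6, 40.0 and 9.50 CPM and IL4 libraries 7.27, 26.9 and 6.09 CPM. Those groups overlapped, and the log2 fold change of 0.65 ± 0.14 (adjusted p = 0.000505, edgeR) was not called without the block (adjusted p = 0.594, edgeR).

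MHC class II genes were lower with Dex than with IL4 at 21 of 52 peaks (40.4%) and higher at 2 (3.85%). Over all tested peaks the shares were 21.5% and 21.2%. The list's median was -0.36, and its median differences from vehicle were 0.07 for Dex and 0.47 for IL4. Ciita, their master coactivator, had 6 of 10 peaks lower. The one with the smallest p (chr16:10486470-10490675) had 8.69, 4.34 and 10.3 CPM with Dex, against 46.3, 49.7 and 57.9 CPM with IL4 (log2 fold change -2.78 ± 0.17, adjusted p = 7.8e-12, edgeR). H2-Ab1 had 4 of 4 and H2-Aa 3 of 3 peaks lower. The single tested Cd74 peak, at the invariant chain gene, had 46.7, 53.9 and 44.1 CPM with Dex and 124, 148 and 134 CPM with IL4. Vehicle averaged 48.1 ± 2.26 CPM at Cd74 (SD, n = 3). Both higher peaks lay near the H2-O genes H2-Oa and H2-Ob, whose products dampen peptide loading, and 1 was left without Dex replicate 2 or without IL4 replicate 1.

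Clock genes had 20 of 89 peaks (22.5%) higher and 34 (38.2%) lower, beside 21.2% and 21.5% over all tested peaks. Npas2, a paralogue of the activator CLOCK, had 12 of 16 lower, and the repressors Bhlhe40 and Bhlhe41 had 12 of 12 and 5 of 8. On the other side, Cry1 had 4 of 5 and Arntl 6 of 12 peaks higher, with 1 Arntl peak lower. Per1, a classic direct GR target, was higher over its start (chr11:69095029-69101124), with 225, 289 and 208 CPM with Dex and 92.3, 95.6 and 96.7 CPM with IL4 (log2 fold change 1.33 ± 0.09, adjusted p = 1.05e-10, edgeR). IL4 differed from vehicle by 0.02 there.

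Phagocytic and scavenger receptors split by gene, with 67 of 204 peaks (32.8%) higher and 58 (28.4%) lower. Over all tested peaks the shares were 21.2% and 21.5%. Without the block 42 were higher. Besides Cd163 and Mertk, the scavenger receptor genes Marco and Stab1 had 8 of 13 and 4 of 7 peaks higher. Itgb3, an integrin chain, had 11 of 11 lower, Mfge8, a bridging protein for apoptotic cells, 5 of 5, and the inhibitory Fc receptor Fcgr2b 9 of 13 lower with 2 higher. The Stab1 peak (chr14:31157183-31176699) had 592, 512 and 589 CPM with Dex, against 227, 252 and 220.0 CPM with IL4 (log2 fold change 1.27 ± 0.09).

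Lipid genes leaned towards IL4, with 81 of 200 peaks (40.5%) lower with Dex and 21 (10.5%) higher. Over all tested peaks the shares were 21.5% and 21.2%. Without the block 50 peaks of the list were lower and 11 higher. Lpl, lipoprotein lipase, had 11 of 11 lower and the cholesterol exporter Abcg1 14 of 15. The Lpl start peak had 49.9, 47.6 and 50.3 CPM with Dex, against 251, 240.0 and 253 CPM with IL4 (log2 fold change -2.33 ± 0.11, adjusted p = 3.54e-13, edgeR). Vehicle lay between them, at 116 ± 31.2 CPM, with Dex lower by -1.22 and IL4 higher by 1.11 (adjusted p = 5.29e-08 and 1.91e-08, edgeR). Rxra, the shared partner of lipid-sensing receptors, was higher at 9 of 15 peaks and lower at 1. Tissue remodelling genes had 55 of 128 peaks (43.0%) lower and 24 (18.8%) higher, beside 21.5% and 21.2% over all tested peaks. Mmp12, macrophage elastase, had 9 of 9 lower and Igf1, a growth factor gene, 17 of 23. F13a1, a transglutaminase subunit often used as a mark of alternative activation, had 10 of 12 higher. Its named peak (chr13:37055415-37058175) had 61.2, 49.0 and 58.2 CPM with Dex and 10.6, 7.62 and 10.3 CPM with IL4.

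Arginine and polyamine genes had 17 of 100 peaks (17.0%) higher and 21 (21.0%) lower, near the 21.2% and 21.5% over all tested peaks. The arginine importer Slc7a2 was lower at 3 of 3 peaks. A peak 42.5 kb from Slc7a11, the cystine transporter gene (chr3:50318819-50322431), had 56.4, 53.9 and 55.3 CPM with Dex, against 7.64, 4.78 and 6.02 CPM with IL4 (log2 fold change 3.19 ± 0.15, adjusted p = 2.81e-13, edgeR), although that gene had 3 lower peaks beside its 2 higher ones.

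All 18 macrophage identity genes had a tested peak, and their summed signal was 5970 to 6850 CPM in Dex libraries and 5490 to 6030 CPM in IL4 libraries. Of their 161 peaks, 36 (22.4%) were higher and 36 (22.4%) lower, beside 21.2% and 21.5% over all peaks. Without the block 23 were higher and 22 lower, and without replicate 3 of all groups 23 were lower. Cx3cr1, the fractalkine receptor gene, had 6 of 6 higher and Runx1, a haematopoietic factor gene, 20 of 45 lower with 1 higher. The Cx3cr1 peak with the smallest p (chr9:120036026-120038964) had 54.4, 32.6 and 49.6 CPM with Dex and 10.7, 7.21 and 11.2 CPM with IL4. Dex did not pass the test against vehicle there (adjusted p = 0.323, edgeR), while IL4 was lower by -2.04. Housekeeping genes had 5 of 35 peaks higher and 5 lower (14.3% each), counts that fell to 2 and 3 without Dex replicate 1 and to 1 and 3 without the block.

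Markers of other cell types were measured to different extents. Their counts of called peaks stand beside 21.2% higher and 21.5% lower over all tested peaks. Tested peaks were found at 9 of 10 dendritic cell markers, 9 of 10 osteoclast markers and 6 of 10 neutrophil markers. Of 10 fibroblast markers 8 had no tested peak, among them Col1a1, Col1a2 and Pdgfra. No tested peak was found for 5 of 10 lymphoid markers, Cd3e and Pax5 among them, for 6 of 10 mast cell and basophil markers, with Kit and Fcer1a, and for 7 of 10 erythroid and megakaryocyte markers, with Gata1. Summed signal was 145 to 163 CPM in Dex libraries and 131 to 144 CPM in IL4 libraries for fibroblast markers, 147 to 192 and 227 to 277 for neutrophil markers, 159 to 220 and 126 to 204 for lymphoid markers, and 10.3 to 24.8 and 13.6 to 19.7 for mast cell and basophil markers. For erythroid markers it was 149 to 182 with Dex and 134 to 157 with IL4. The sum of neutrophil markers was thus lower in every Dex library, although the list's median of -0.11 turns positive with scaling by low-count peaks. By gene, Csf3r had 3 of 5 neutrophil-list peaks lower and Cxcr2 2 of 2, Ltf had 1 of 4 higher and 1 lower, and the single Elane peak was higher (1.28). The single peaks of S100a8 (0.38) and Camp (0.75) did not pass the test, and Ly6g, S100a9, Mpo and Ngp had no tested peak. Dendritic cell markers summed to 356 to 379 CPM with Dex and 445 to 466 CPM with IL4 over 44 peaks, 13 higher and 17 lower, 11 of the lower ones at Batf3, and without the block 6 were higher. Osteoclast markers, many of which macrophages express, summed to 1170 to 1630 CPM with Dex and 1450 to 1560 CPM with IL4. Of their 44 peaks, 10 (22.7%) were higher and 12 (27.3%) lower. The higher count was 6 without IL4 replicate 1 and 4 without replicate 1 of all groups, and the lower count 7 without the block. Of the smaller lists, 4 of 12 fibroblast peaks were higher and 2 lower, 2 of 14 neutrophil peaks higher and 6 lower, 5 of 11 lymphoid peaks higher and 1 lower, and 3 of 8 erythroid peaks higher and 1 lower. The lymphoid count of higher peaks was 3 without IL4 replicate 3 and 1 without the block, and the neutrophil count of higher peaks was 1 without Dex replicate 2 or 3 or IL4 replicate 1 or 2. Of 6 mast cell and basophil peaks edgeR and DESeq2 each called 0, with 0 at an unadjusted p under 0.05. What part such cells had in the differences was not tested.

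**Figure D3:**
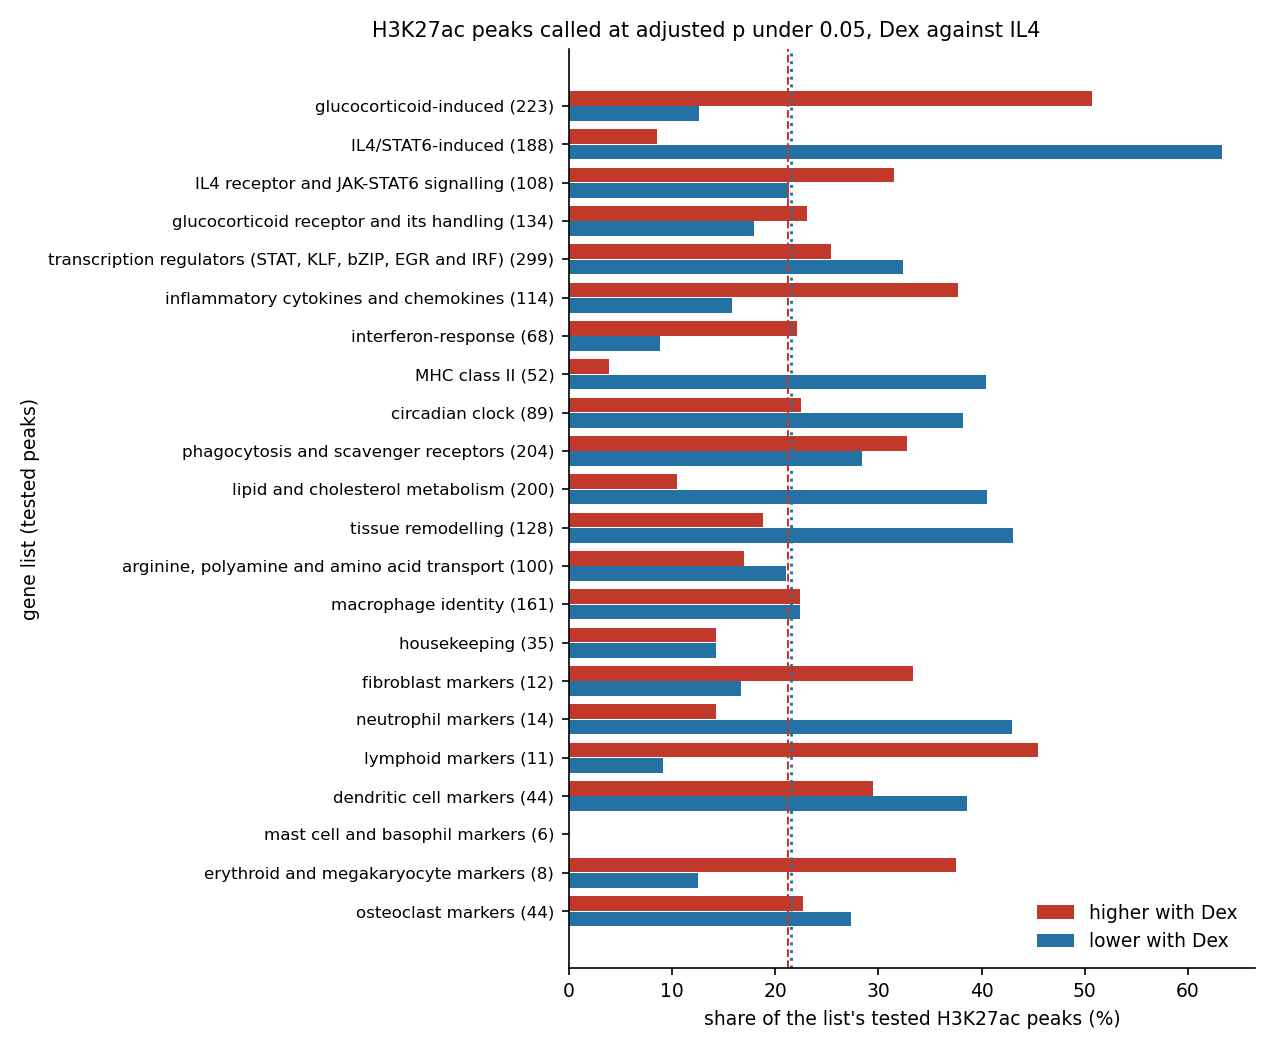
Share of each gene list's tested H3K27ac peaks (number in brackets) called higher (red) or lower (blue) with Dex than with IL4. The dashed and dotted lines mark the shares over all tested peaks, 21.2% and 21.5%. The glucocorticoid-induced list stands at 50.7% higher and the IL4/STAT6-induced list at 63.3% lower. The lists were chosen with earlier results of these data known.

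Called peaks were also counted by gene. Of 12839 genes with a tested peak, 3193 had only higher called peaks, 3127 only lower, 1643 both and 4876 none. Genes were ranked by count and not by share, and over all tested peaks 21.2% were higher and 21.5% lower. Lyn, a Src-family kinase, had the most higher peaks, 31 of 51 with 2 lower, followed by Elmo1 with 21 of 55 and 6 lower, Fggy with 21 of 38 and 9 lower, and Pid1 with 19 of 34 and 1 lower. Zfhx3 had 18 of 29 higher and Man2a1, a Golgi mannosidase gene, 18 of 22, both with none lower. Its peak with the smallest p (chr17:64719477-64724941) had 170.0, 210.0 and 164 CPM with Dex, against 16.9, 16.2 and 12.1 CPM with IL4, and 32.3 ± 2.68 CPM with vehicle (SD, n = 3). The log2 fold change of 3.60 ± 0.12 (adjusted p = 2.01e-15, edgeR) stood beside differences from vehicle of 2.48 for Dex and -1.12 for IL4. At Lyn (chr4:3645981-3652789) values were 187, 252 and 171 CPM with Dex and 68.8, 92.7 and 76.1 CPM with IL4, and differences from vehicle were 0.37 for Dex and -0.98 for IL4.

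Vps13d, a lipid transfer protein gene, had the most lower peaks, 26 of 38 with none higher, and Phlpp1, an Akt phosphatase gene, had 20 of 24 with none higher. Myo1e had 22 of 36 lower and 1 higher, Snx29 22 of 51 and 5 higher, Fat3 20 of 30 and 1 higher, and Lpp 20 of 70 and 3 higher. In Snx29 (chr16:11622965-11625382) the peak with the smallest p had 7.22, 5.31 and 5.26 CPM with Dex, against 23.8, 27.6 and 35.7 CPM with IL4 (log2 fold change -2.32 ± 0.17, adjusted p = 1.91e-10, edgeR). In Fggy the peak with the smallest p had 18.0, 63.1 and 22.7 CPM with Dex and 7.89, 21.6 and 5.35 CPM with IL4. Its groups overlapped, and the call of this named H3K27ac peak Fggy chr4:95782586-95785441 was lost without the block (adjusted p = 0.108, edgeR).

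**Figure D4:**
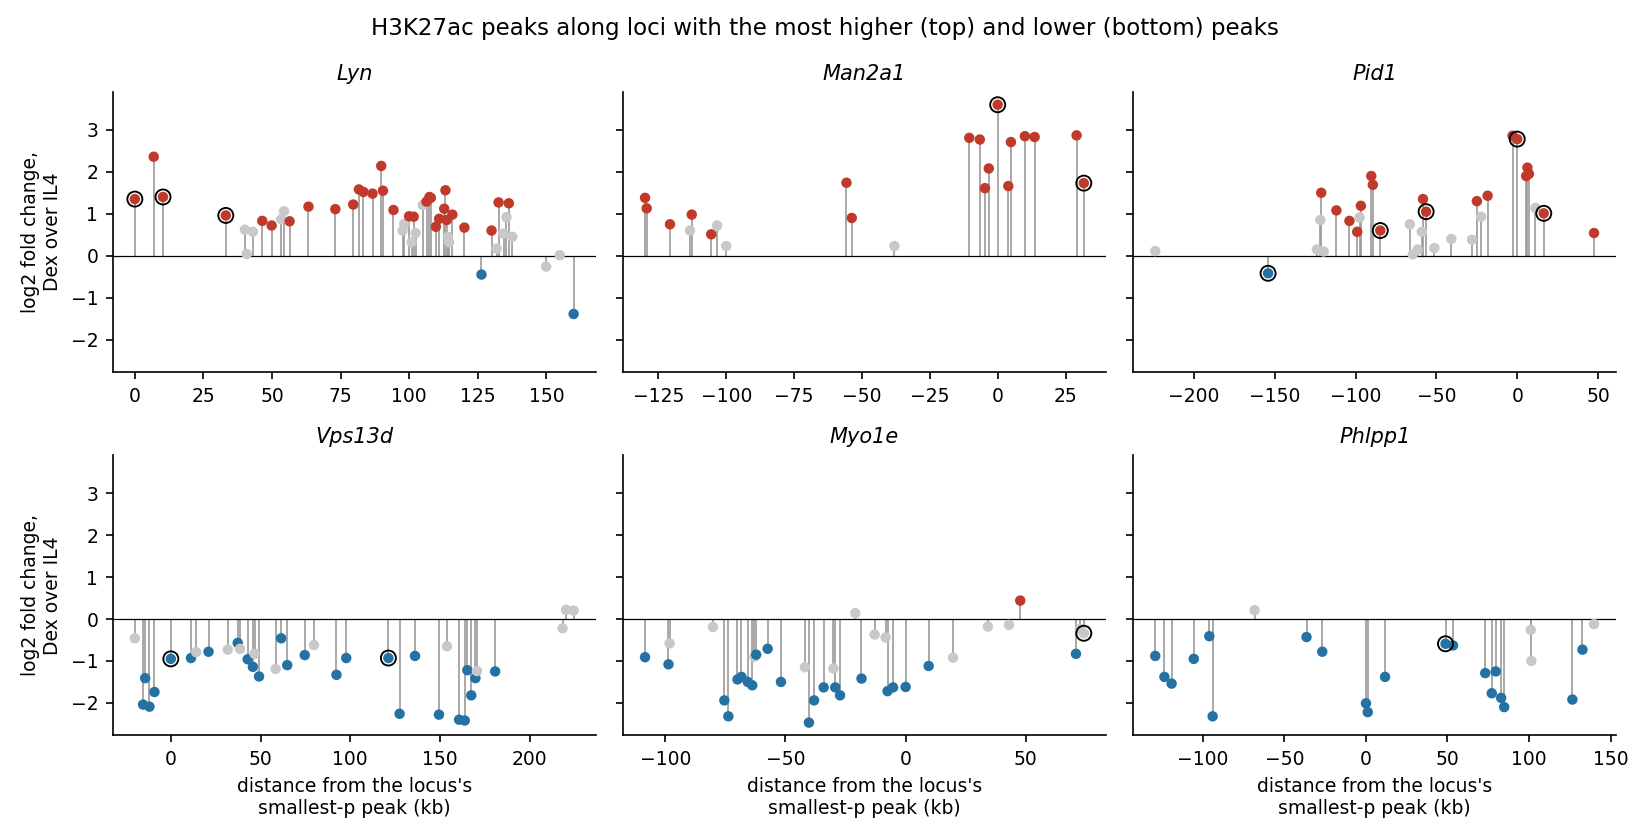
Log2 fold change of Dex over IL4 of each tested H3K27ac peak assigned to 6 genes, against its distance in kb from the gene's peak with the smallest p. Red points were called higher with Dex, blue lower and grey neither, and rings mark peaks that overlap a GR peak. Lyn (31 higher), Man2a1 (18) and Pid1 (19) carry mostly higher called peaks, and Vps13d (26 lower), Myo1e (22) and Phlpp1 (20) mostly lower ones.

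GR binding was set beside the acetylation differences. A GR peak overlapped 13.9% of the peaks higher with Dex and 4.90% of the lower ones, against 6.52% of all tested peaks. The share differed with the size of the difference. Of higher peaks with a log2 fold change of 2 to 3, 25.3% overlapped a GR peak (95% exact binomial interval 21.9% to 29.0%), of those at 3 to 4 it was 50.5% (40.4% to 60.6%) and of the 20 at 4 or more 70.0% (45.7% to 88.1%). Below 2 the share was lower, 13.8% under 1 and 11.6% from 1 to 2. Lower peaks ran the opposite way, with 9.14% under 1, 2.47% from 1 to 2, 0.56% from 2 to 3 and 0 of 47 at 4 or more, which allows up to 7.55%. These intervals cover counting error only. Seen from the other side, 19.5% of the 55976 peaks with no GR peak were higher and 21.9% lower. With 1 GR peak 44.6% of 3502 were higher and 15.9% lower, with 2 it was 50.5% and 16.8% of 327, and with 3 or more it was 40.8% and 27.6% of 76. Peaks with GR were longer, with a median of 2660 bp for 1 GR peak against 1030 bp for none. Among peaks of 1092 to 2016 bp, 58.6% of those with GR and 24.5% of those without were higher, and among longer peaks 47.6% and 27.3%. Among peaks of at most 476 bp, those with GR were called less often in both directions. Of 379 with GR, 4.75% were higher and 0.792% lower, against 9.03% and 13.3% of those without. The median log2 fold change of these short peaks was 0.19 with GR and 0.05 without.

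Of 5183 tested GR peaks, 400 (7.72%) were higher and 74 (1.43%) lower with Dex than with IL4. The IL4 GR libraries all belong to the second of the batches in the titles. Within that batch alone 133 were higher and 39 lower. In a fit of all GR libraries with both batch and replicate number, 18 were higher and 28 lower. Dex replicates 1 and 2 are in the first batch and the IL4 ones in the second, so that block pairs libraries across batches. The count of GR peaks higher with Dex than with IL4 was 249 without Dex replicate 4, and that of GR peaks lower with Dex than with IL4 was 322 without Cort replicate 4. Of the 400 GR peaks higher with Dex, 385 (96.2%) lay in a tested H3K27ac peak, and of the 4709 not called 3210 (68.2%) did. The H3K27ac peaks over the higher GR peaks numbered 372, of which 329 (88.4%) were higher and 6 (1.61%) lower, with a median log2 fold change of 1.48. Of the 74 lower GR peaks, 18 (24.3%) lay in an H3K27ac peak, and 3 of those 19 peaks were higher and 3 lower. Among the 2893 H3K27ac peaks over a GR peak that was not called, 43.3% were higher and 16.2% lower. A GR peak that was not called may still differ. In simulated counts the GR fit called only 20.9% and 16.3% of log2 changes of -2 and 2. Few peaks were changed there, so these shares need not hold for the real counts. Across 3620 overlapping pairs of peaks the Spearman correlation of the differences was 0.46, as a description, since pairs share libraries.

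GR signal was also read at the peaks named above. In the Armc12 peak the GR peak (chr17:28523023-28523367) had 86.0, 64.5, 56.6 and 77.6 GR CPM in Dex libraries, against 3.42, 7.35 and 12.8 GR CPM in IL4 libraries (log2 fold change 3.16 ± 0.58, adjusted p = 0.00274, edgeR). In the Zbtb16 peak GR averaged 122 ± 22.8 CPM with Dex (SD, n = 4) and 9.56 ± 4.37 CPM with IL4 (SD, n = 3). The 12 named higher peaks held 13 tested GR peaks, 12 of them higher with Dex. The one not called lay in the Ube2s peak (adjusted p = 0.052, edgeR). Of the GR sites named as higher, the one in Hif3a (chr7:17058151-17058601), had 167, 124, 130.0 and 133 GR CPM with Dex, against 5.47, 9.36 and 11.3 with IL4 (log2 fold change 3.95 ± 0.35), and lies in the Hif3a acetylation peak described above. GR sites named near Stard8 and Fos also lay in peaks with higher H3K27ac, by 3.02 and 2.37. At Lamp1 and Eno1 all 3 IL4 libraries had 0 reads, and the GR signal with Dex was 19.4 and 20.8 CPM in replicates 1 and 2 of Lamp1 but 0.595 and 2.79 CPM in replicates 3 and 4. At Eno1 the Dex values were 7.76, 5.33, 1.19 and 0.929 CPM. Dex replicates 1 and 2 belong to the first batch, and replicates 3 and 4 to the second, as do all IL4 libraries. Neither the Lamp1 nor the Eno1 site overlapped a tested H3K27ac peak. Of the GR sites named as lower, those nearest Camsap2, Zc3h7a and Cab39 lay outside tested H3K27ac peaks and the one nearest Taf12 lay in a peak with an H3K27ac difference of 0.36, while an Itga9 site with lower GR (-2.30 ± 0.29) lay in a peak with higher H3K27ac (1.36 ± 0.12).

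**Figure D5:**
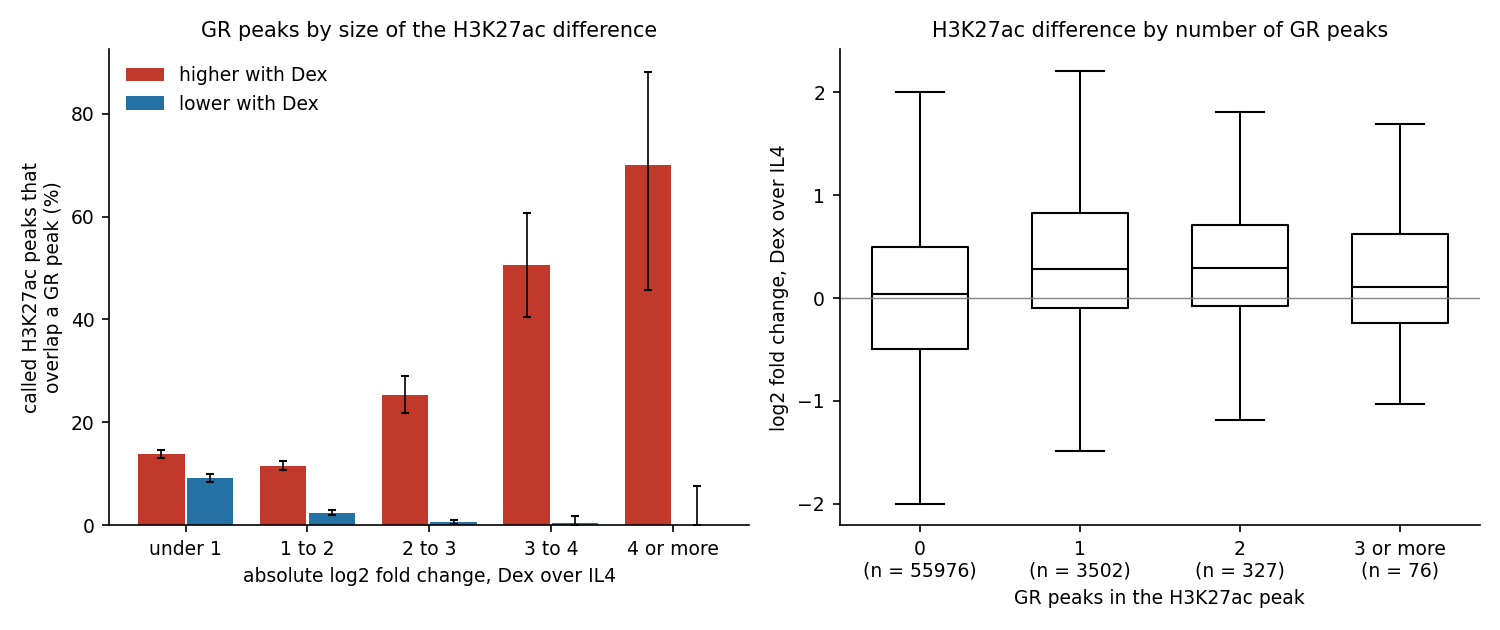
Left, share of called H3K27ac peaks that overlap a GR peak, by absolute log2 fold change of Dex over IL4, for peaks higher (red) and lower (blue) with Dex, with exact 95% binomial intervals. Right, log2 fold change by number of GR peaks in the H3K27ac peak (box, quartiles; line, median; whiskers to 1.5 times the box height). The share reaches 70.0% for higher peaks at 4 or more, and the median is 0.28 with 1 GR peak against 0.04 with none.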

How the data were processed

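H3K27ac and GR ChIP-seq reads over peaks were deposited by the authors as raw counts per peak, 1 table per assay, with 1 column per library. The submitters' processing notes name fastp, Bowtie2, SAMtools, MACS2, featureCounts and the build mm10, with no roles or settings. Library columns were matched to samples by their names, and columns headed C to the vehicle samples because no other group remained.

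H3K27ac counts of all 12 libraries were fitted with edgeR 4.0.16 in R 4.3.3 (filter by group, TMM scaling, treatment plus replicate number, quasi-likelihood test, Benjamini-Hochberg adjustment over 59881 peaks). Counts in peaks ran from 6829787 to 15695771 per library. The replicate block was kept because libraries with the same number deviated together: the 18 same-number correlations of deviations from group means were 0.27 to 0.68 and the 36 others -0.45 to 0.04. Common biological variation was 0.112 with the block and 0.24 without. GR counts of 15 libraries were fitted with treatment and batch. Peaks overlapped when they shared at least 1 bp. Genes and promoters came from RefSeq (GRCm38.p6, the same assembly as mm10). Of 405 list genes, 403 matched. Scripts were tested on simulated counts with known log2 changes. Dex was set equal to IL4 except at 50 peaks for each size of change. With so few changes the adjusted threshold is strict, so the shares called need not hold for the real counts. Shares are of the changed peaks that passed the count filter. The H3K27ac fit called 48.0% and 66.0% of changes of -1 and 1. It called 79.6% and 100.0% of changes of -2 and 2, with 4 false calls. The GR fit called 2.44% and 0.0% of changes of -1 and 1. For changes of -2 and 2 it called 20.9% and 16.3%, with 0 false calls. Figures were drawn with matplotlib 3.10.9.

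Named peaks are the 12 highest and 12 lowest log2 fold changes among called peaks of at least median abundance, with all 3 Dex libraries beyond all 3 IL4 libraries and a named gene within 50 kb, at most 1 per gene. Added to them are 6 each way within 1 kb of a gene start, up to 6 genes per list by smallest p, the 6 genes with the most higher and the 6 with the most lower peaks, and 5 GR peaks each way. Members, lists and rules were chosen with earlier results of these data known. Alternatives covered the block, the libraries fitted, scaling, the count filter, DESeq2 1.42.0, a fold threshold, the authors' column that marks filtered peaks, gene distance, the GR batch, and each replicate left out. Intervals for shares are exact binomial and cover counting error only.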

Additional observations from a re-analysis of the deposited data

Results flagged for a closer look

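Among the 4 GR libraries of Dex cells, replicate 4 lay apart from the others in its counts in peaks, with 1904442 against 1185798, 1208021 and 1289013 in replicates 1 to 3. The gap to its nearest neighbour was 0.856 of the whole range. At the GR peak nearest Cab39 (chr1:85864511-85864644), replicate 4 had 7.44 CPM against 10.5, 10.7 and 10.7 CPM, a gap of 0.946 of the range. Both ratios exceed the 95% critical value of Dixon's test for 4 samples, which chance passes in about 1 in 20 groups. The H3K27ac groups, with 3 libraries each, were not tested in this way.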

How the results depend on the processing

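Counts of called H3K27ac peaks, lists and named peaks were recomputed under each alternative, and no called direction reversed. Without the replicate block 7238 H3K27ac peaks were higher and 8736 lower with Dex, and with a fold threshold of 1 log2 unit either way the counts were 5521 and 7555. Leaving out 1 Dex or IL4 replicate, or 1 replicate number from every group (chosen after seeing the data), gave 9028 to 11381 higher and 9766 to 12103 lower peaks. DESeq2 called 9998 and 11225. For the glucocorticoid-induced list the leave-one-out counts were 99 to 112 higher and 22 to 27 lower, with 72 higher among peaks marked TRUE in the authors' column named filtered and 12 lower with genes within 10 kb. For the IL4/STAT6-induced list they were 13 to 17 higher and 101 to 115 lower, with 7 higher at the fold threshold. Counts of GR peaks higher with Dex than with IL4 and of GR peaks lower with Dex than with IL4 were 133 and 39 in batch 2 alone, 18 and 28 with the replicate block and batch, and 249 to 506 and 53 to 322 with 1 library left out, the extremes being without Dex replicate 4 (249), without Cort replicate 4 (506 and 322) and without IL4 replicate 3 (53). For GR, replicates 1 and 2 of Dex and of IL4 do not share a batch, so the replicate block pairs libraries across batches. The causes were not tested.

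Of the recomputed list counts 758 stayed within 1.5 times the reported count and 122 did not. Of the values of named H3K27ac peaks 2588 kept their call and 60 lost it, and of those of named GR peaks 129 kept it and 16 lost it. With scaling by low-count peaks the median of all tested peaks was 0.24, and medians changed sign for the arginine list (0.08, against -0.09 as reported), the housekeeping list (0.14, against -0.04) and the fibroblast, neutrophil, dendritic cell, mast cell and osteoclast markers. Peaks of few counts, such as the Dex values under 1 CPM at Ear10 and Pdcd1lg2, limit how exactly the largest folds are known.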
